A study of Mus musculus with 6 samples.

Results

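The 27 genes described here are protein-coding genes whose level fell about 4-fold or more in testes lacking Hsf5, a member of the heat shock factor family, while the control testes differed little from each other. They were chosen on 3 limits, all read from the normalised read counts themselves: a mean over the controls of at least 50, a difference between the controls of at most 0.5 on the log2(value + 1) scale, and a knockout minus control difference of -2 or lower on the same scale. Of 17807 protein-coding genes in the table, which lists 29333 genes of all types, 12553 had a control mean of at least 50. Of these, 406 had a difference of -2 or lower, and 27 of the 406 (6.65%) also had controls within 0.5 of each other. The choice rests on the knockout against control difference itself, so the values of the 27 genes are a description, and no call or SE given for them is evidence of a fall.

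The study sequenced RNA of whole testes collected from mice at postnatal day 16, with 3 samples labelled knockout (Hsf5-/-) and 3 labelled wild type. The design text allows the control to be either wild type or Hsf5+/-, so a heterozygous control cannot be told from a wild-type one by the labels. The table analysed here holds controls 1 and 2 and knockouts 1 and 3; control 3 and knockout 2 were not analysed here. The mouse strain, the part of Hsf5 that was removed and whether each sample came from a separate animal are not stated in the labels, so the spread between samples may be partly technical. Libraries held between 16209093 and 18557898 reads on genes.

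HSF5 is a testis-expressed member of the heat shock factors, DNA-binding proteins known for reading heat shock elements. Whether HSF5 itself reads such elements was not tested here. In the mouse testis the first wave of germ cells moves in near synchrony from spermatogonia through meiotic prophase, and the pachytene stage switches on many genes used later for the flagellum, the acrosome and small RNA silencing. In whole testis, fewer cells of a type and less RNA per cell cannot be told apart.

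The promoters of 24 of the 27 genes were found in RefSeq (build GRCm38.p6), as 27 windows of 250 bases before to 50 bases after a start site. GAANNTTC, letters from the heat shock element that are called a unit here, lay in 5 of the 27 windows (18.5%). The share was 5.58% in windows of protein-coding genes with a control mean of at least 50 and 7.86% in all windows in the table. Among the 379 other genes with a difference of -2 or lower it was 7.58%, given for orientation only. Those 5 windows belong to 4 genes: Stambp, D7Ertd443e, Lrrc37a and Agbl2, the last with a unit in each of 2 windows. The alternative reading of the unit, TTCNNGAA, lay in 1 window (3.70%), that of Prok2, against 6.72%, 8.52% and 6.18% in the same order. Either form lay in 6 windows (22.2%), against 11.4%, 15.1% and 13.5%. Nothing particular to the 27 genes is read from these shares. Both strands were searched, each of these motifs reads the same on either strand, and a match is a match of letters only. The 250 bases before the start of 3 genes are shown because they hold GAANNTTC, in capitals, close to the start; each runs 5′ to 3′ on the gene's own strand, at chr6:83572505-83572754 for Stambp, chr11:103505009-103505258 for Lrrc37a and chr7:134376832-134377081 for D7Ertd443e, all on the minus strand.
Stambp: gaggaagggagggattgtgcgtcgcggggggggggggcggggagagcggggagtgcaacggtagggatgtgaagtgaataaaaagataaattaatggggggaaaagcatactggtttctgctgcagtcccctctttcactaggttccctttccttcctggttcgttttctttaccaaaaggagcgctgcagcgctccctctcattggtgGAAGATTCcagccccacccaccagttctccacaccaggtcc
Lrrc37a: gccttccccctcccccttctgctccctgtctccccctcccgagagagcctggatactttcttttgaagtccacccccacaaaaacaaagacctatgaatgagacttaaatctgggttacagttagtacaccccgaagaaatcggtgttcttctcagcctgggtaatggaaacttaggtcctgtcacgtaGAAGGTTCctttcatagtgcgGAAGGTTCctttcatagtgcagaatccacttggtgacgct
D7Ertd443e: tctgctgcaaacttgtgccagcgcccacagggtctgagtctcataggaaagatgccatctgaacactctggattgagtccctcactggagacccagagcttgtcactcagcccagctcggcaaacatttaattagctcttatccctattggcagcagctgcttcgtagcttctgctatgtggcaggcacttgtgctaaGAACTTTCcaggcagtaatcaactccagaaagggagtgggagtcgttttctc

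The first capital lay at base -41 from the start in Stambp and at base -52 in D7Ertd443e. Lrrc37a held 2 units of the same letters, GAAGGTTC, at bases -61 and -40. The bases after each unit are nearly the same, so the window repeats a stretch that holds the unit. In Agbl2 the units stood further away, at -238 in one window and -151 in the other.

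GTTGCC, a core of the X-box read by RFX factors of ciliated cells and spermatocytes, lay in 7 windows (25.9%), against 13.04% of expressed protein-coding windows and 12.5% of all windows. Among the 379 other strong falls, of which 77.3% had a window (80.3% of the expressed protein-coding genes did), the share was 26.7%, and nothing particular to the 27 is read from it. The 7 genes were Ceacam20, Spata31d1a, Prss47, Dynlrb2, Agbl2, 4931428L18Rik and Spats1. CACGTG, an E-box that TCFL5 and other factors can read, lay in 3 windows (11.1%), those of Prok2, Spata31d1a and Piwil1, against 10.02% and 7.15%. The windows of 4931428L18Rik and Dynlrb2, with GTTGCC in capitals, and of Piwil1, with CACGTG in capitals, are shown as examples. They lie at chr1:31222657-31222906 (minus strand), chr8:116504765-116505014 (plus strand) and chr5:128735996-128736245 (plus strand).
4931428L18Rik: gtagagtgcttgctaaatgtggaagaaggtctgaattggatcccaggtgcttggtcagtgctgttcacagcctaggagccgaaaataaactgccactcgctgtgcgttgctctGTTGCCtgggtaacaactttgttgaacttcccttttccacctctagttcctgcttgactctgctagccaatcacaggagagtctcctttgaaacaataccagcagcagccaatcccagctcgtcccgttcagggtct
Dynlrb2: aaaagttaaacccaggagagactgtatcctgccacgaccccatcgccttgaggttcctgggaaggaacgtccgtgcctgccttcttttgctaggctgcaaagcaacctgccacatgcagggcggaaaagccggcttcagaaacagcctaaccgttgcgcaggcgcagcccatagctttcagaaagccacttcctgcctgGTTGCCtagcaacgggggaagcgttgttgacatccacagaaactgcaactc
Piwil1: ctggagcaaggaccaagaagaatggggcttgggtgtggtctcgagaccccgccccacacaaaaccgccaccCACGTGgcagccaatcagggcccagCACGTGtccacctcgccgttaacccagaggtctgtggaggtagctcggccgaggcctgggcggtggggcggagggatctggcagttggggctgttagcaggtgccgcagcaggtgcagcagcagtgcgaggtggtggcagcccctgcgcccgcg

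GTTGCC began at base -137 in 4931428L18Rik and at base -51 in Dynlrb2, and CACGTG began at bases -179 and -154 in Piwil1. The 27 windows had a median GC content of 54.7%, against 61.0% for expressed protein-coding genes and 52.7% for all windows. An observed over expected CpG ratio of 0.6 or more, a common mark of a CpG island, was met by 33.3% of the windows, against 69.3% of expressed protein-coding windows and 35.8% of all windows. Windows of the 379 other strong falls, given for orientation only, had a median GC content of 54.7% and 34.3% at that CpG ratio. Nothing particular to the 27 genes is read from these measures. A GC box, GGGCGG, lay in 40.7%, against 62.6% and 35.7%.

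Hsf5 itself stood at 2541 and 3147 normalised reads in controls 1 and 2 and at 1926 and 1602 in knockouts 1 and 3, which is 62.0% of the control mean. Both knockouts lay below both controls, with a log2 difference of -0.69 (SE 0.12, limma with Benjamini-Hochberg adjustment, adjusted p = 0.00716). The call was lost without control 2 and without knockout 3 (adjusted p = 0.108 and 0.072), and without the filter on low values (adjusted p = 0.0901). Because the removed part of the gene is not stated, its read count does not check the genotype. Across all genes tested, 2366 of 17480 (13.5%) were called lower in the knockouts and 573 (3.28%) higher at an adjusted p under 0.05 in limma.

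Markers of cell types moved with the groups and between the controls. Of 17 pachytene and diplotene markers tested, 17 were called lower. The summed level of the list was 69446 and 104990 in controls 1 and 2 and 26943 and 22208 in the knockouts. Piwil1, chosen among the 27 genes for its fall, is in this list, with 11269 and 14222 in the controls and 3178 and 2356 in the knockouts. Zpbp2 counts both here and among the round spermatid markers. Of 10 round spermatid markers tested, 6 were called lower, with sums of 3007 and 6107 in the controls against 1160 and 899 in the knockouts. This list includes acrosome genes, which the pachytene stage can switch on, and whether spermatids were present was not tested. For early meiotic prophase, 5 of 19 markers were called lower and none higher, and the knockout sums of 52858 and 44804 lay below the control sums of 54519 and 61312. Among 18 Sertoli markers 4 were called higher and none lower, with sums of 137743 and 132074 in the controls and 161857 and 151953 in the knockouts. Spermatogonial markers were called higher in 4 of 14 and lower in 1 of 14, with sums of 19449 and 17112 in the controls and 21306 and 20536 in the knockouts. Of 5 red blood markers 3 were called higher, with sums of 1452 and 1207 in the controls and 1852 and 2319 in the knockouts. Leydig markers were called higher in 1 of 9 and lower in none, with sums of 6552 and 9521 in the controls and 8082 and 6557 in the knockouts. No marker of these lists in the table was at 0 in every library. Control 2 thus carried more of the pachytene and spermatid markers than control 1, and their part in the falls of the 27 genes was not tested.

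Strong falls with close controls were rare. Among the 11421 genes whose controls lay within 0.5, which are 91.0% of the 12553, only 27 (0.236%) fell by 2 or more, whereas 379 of the 1132 genes with controls further apart did (33.5%); over all 12553 genes the share was 3.23%. The 27 genes still leaned the same way as the rest. Control 2 was above control 1 in 26 of the 27, Stambp being the exception, and in 379 of the other 379 strong falls, against 50.9% of the 12553 genes. Knockout 3 was below knockout 1 in 21 of the 27, above it in 5 (Stambp, Fam174b, C8b, Usp44 and Gnao1) and tied at 0 in Kcnk10. The median fall was -2.40 (from -7.41 to -2.04), against -2.95 among the 379, and the median difference between controls was 0.34 against 1.13.

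**Figure D1:**
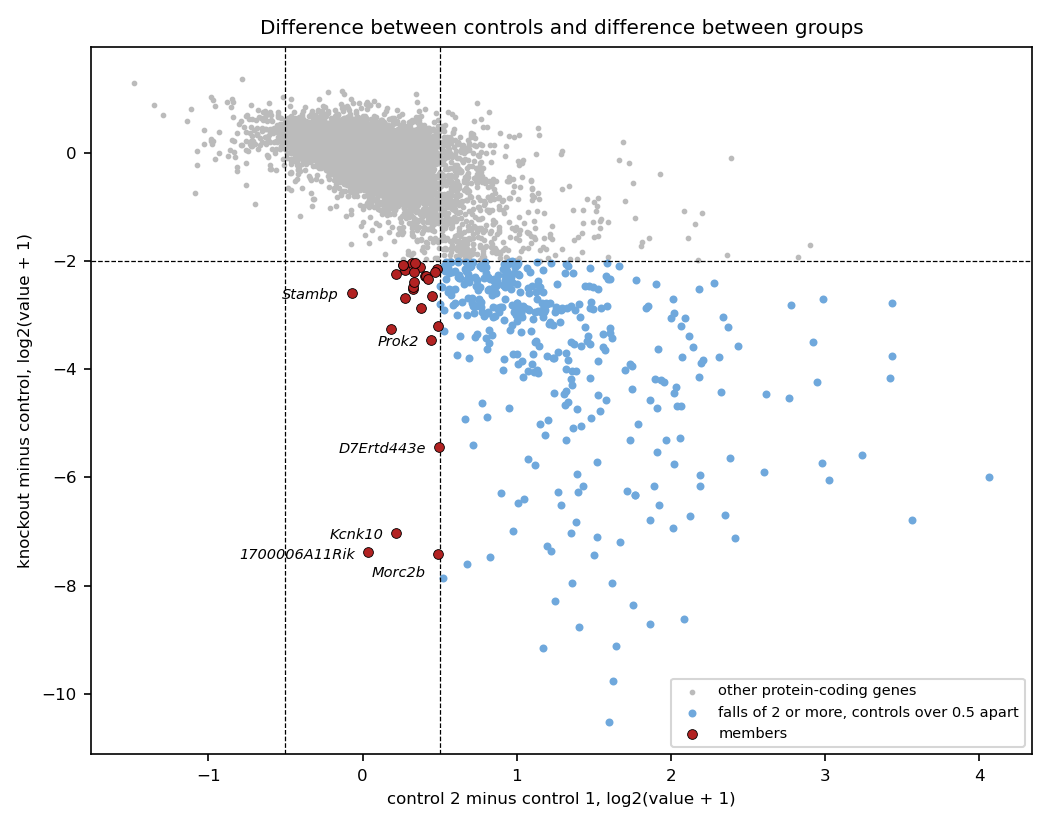
Difference between controls (control 2 minus control 1, horizontal) against difference between groups (knockout minus control, vertical), both in log2(value + 1), for the 12553 protein-coding genes with a control mean of at least 50. Dashed lines mark the limits of 0.5 and -2; the 27 members are red, the 379 strong falls with controls over 0.5 apart are blue, and 26 of the red points lie to the right of 0, with Stambp alone to its left.

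Reads were many enough to measure most falls but not always the closeness of the controls. The exact 95% counting interval of the difference between controls stayed within 0.5 in 7 of the 27 genes and reached past it in 20, and it included 0 in 10. These intervals cover counting error only. In 1700006A11Rik it ran from -0.05 to 0.12, and in D7Ertd443e, with 124 control reads in all, from -0.03 to 1.05. The knockout mean was between 0% and 24.1% of the control mean (median 18.4%), against a median of 11.4% among the 379. Both knockouts lay below both controls in all 27, which the limits all but fix, so nothing is read from it beside the 34.6% of the 12553 genes. All 27 were tested and called lower by limma, beside the 13.5% of all genes, and nothing is read from that call because the rule used the same difference.

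**Figure D2:**
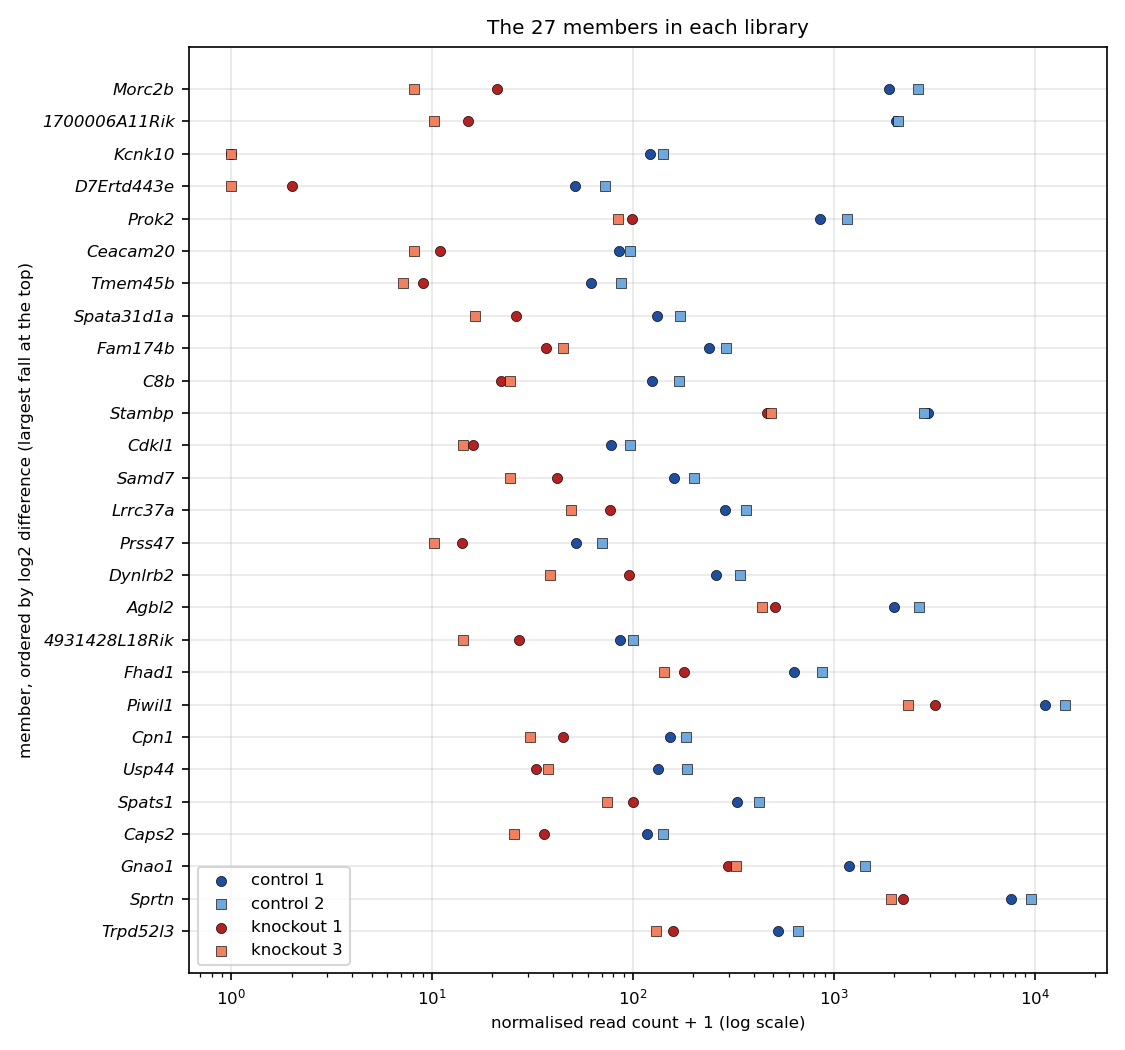
Normalised read count + 1 (log scale) of each of the 27 genes in the 4 libraries, one row per gene, ordered from the largest fall at the top. Blue marks are controls and red marks are knockouts; in each row the knockouts lie to the left of the controls, with the widest gaps in Morc2b, 1700006A11Rik, Kcnk10 and D7Ertd443e.

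The 4 genes with a fall past 5 stood apart from the other 23, which ran from -3.45 to -2.04. Morc2b, which encodes a germ-cell ATPase of the MORC family needed for meiosis, was at 1877 and 2638 normalised reads in controls 1 and 2 and at 20.04 and 7.17 in knockouts 1 and 3, a log2 difference of -7.41. The knockouts held 0.60% of the control mean. 1700006A11Rik, a gene of little known function, was at 2041 and 2090.4 in the controls and at 14.0 and 9.22 in the knockouts (-7.38). Its controls were the closest of the 4 genes, 0.03 apart on the log2 scale, with a counting interval from -0.05 to 0.12.

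Kcnk10 encodes a background potassium channel. It was at 120.2 and 139.8 in the controls and had no read in either knockout. With 265 control reads against 0, its level was at least 85.5-fold lower, taking 3 reads over both knockouts as the limit that a count of 0 allows. D7Ertd443e, of little known function, was at 50.4 and 71.4 in the controls and at 1.002 and 0 in the knockouts. That is 124 reads against 1, a ratio of 120 with a counting interval from 21.1 to 4777. Only these 2 of the 27 genes had 3 or fewer knockout reads.

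Genes of regulation and small RNA included 2 more members beside Morc2b. Piwil1, which encodes the PIWI protein MIWI that binds pachytene piRNAs, was the most abundant of the 27 by length, at 2925 reads per kilobase of exon in the controls. It was at 11269 and 14222 in the controls and at 3178 and 2356 in the knockouts, a difference of -2.21. Samd7, known as a Polycomb-linked repressor in photoreceptors, was far lower, at 160.0 and 201 in the controls and at 41.1 and 23.6 in the knockouts (-2.49). Control 2 was the highest and knockout 3 the lowest library in each.

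The relatives of Morc2b and Piwil1 had smaller differences. Among PIWI genes, Piwil2 differed by -0.65 (limma adjusted p = 0.000625), with control 1 above control 2, and Piwil4 was not called (0.17, adjusted p = 0.68). Among MORC genes, Morc3 differed by -0.29 (adjusted p = 0.0418), a call lost with any library left out. Morc1 (-0.18, adjusted p = 0.38), Morc2a (-0.18, adjusted p = 0.133) and Morc4 (0.28, adjusted p = 0.432) were not called. The differences between these relatives and the 2 members were not tested.

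3 members encode enzymes of the ubiquitin system or of DNA damage repair. Stambp, a deubiquitinase that acts on endosomal cargo, was at 2952 and 2810.3 in the controls and at 465 and 486 in the knockouts (-2.60, SE 0.09). It had the smallest SE of the 27 and was the one gene with control 1 above control 2, by 0.07 on the log2 scale with a counting interval from -0.15 to 0.00. Sprtn, a protease that degrades proteins crosslinked to DNA, was the second most abundant by length, at 1826 reads per kilobase. Its values were 7600.3 and 9607 in the controls and 2217 and 1932 in the knockouts (-2.05).

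Usp44, a deubiquitinase of the mitotic checkpoint, was at 132 and 184 in the controls and at 32.1 and 36.9 in the knockouts (-2.15). Its relative Usp49 was not called (0.12, limma adjusted p = 0.591). Stambpl1, the relative of Stambp, was not called either (0.69, adjusted p = 0.242), from a control mean of 37.7.

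3 members act on microtubules or cilia. Agbl2, a carboxypeptidase that trims the tails of tubulin, was at 1990.5 and 2652 in the controls and at 508 and 439 in the knockouts (-2.28). Dynlrb2, a light chain of cytoplasmic dynein, was at 258 and 341 in the controls and at 95.2 and 37.9 in the knockouts (-2.28). Its knockouts differed by more than 2-fold, and its highest knockout was the closest to a control of all 27 genes, with a ratio of 2.71 to the lowest control. Without knockout 3 its fall was -1.63, and without knockout 1 it was -2.94.

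Cdkl1, a kinase tied to cilium length, was at 76.6 and 96.2 in the controls and at 15.03 and 13.3 in the knockouts (-2.52). Several relatives of Agbl2 and Cdkl1 were called lower as well. Agbl4 (-2.47, limma adjusted p = 0.00312), Agbl5 (-1.77, adjusted p = 0.000311), Agtpbp1 (-0.76, adjusted p = 0.0022) and Agbl3 (-0.63, adjusted p = 0.00697) were called lower. So were Cdkl4 (-3.72, adjusted p = 0.00111), Cdkl3 (-1.29, adjusted p = 0.000823) and Cdkl2 (-1.09, adjusted p = 0.00163). The calls of Agbl3, Agbl4, Cdkl2 and Cdkl4 were lost without control 2 and without the filter on low values, and that of Agbl3 also without knockout 3. Agbl1, between 0.97 and 10.9 in the 4 libraries, was too low to test.

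Control 2 exceeded control 1 by 1.10 in both Agbl4 and Cdkl4, which kept them outside the limits. Dynlrb1, the other roadblock light chain, was at 1138 and 968 in the controls and 1439 and 1283 in the knockouts and was not called (0.37, limma adjusted p = 0.0553). With values scaled to library totals or by TMM factors it was called higher (adjusted p = 0.0188 and 0.0482).

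7 members encode calcium, signalling or membrane proteins, Kcnk10 among them. Prok2, a secreted ligand of G-protein-coupled receptors, had the fifth largest fall, from 855 and 1166 in the controls to 98.2 and 83.0 in the knockouts (-3.45). Its receptor genes were low: Prokr1 was between 23.3 and 30.7 in all 4 libraries (-0.03, limma adjusted p = 0.974) and Prokr2 was between 4.10 and 11.02. Gnao1, an alpha subunit of inhibitory G proteins, was at 1197 and 1437 in the controls and at 296 and 325 in the knockouts (-2.08).

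Of the other G-protein alpha genes, none of Gnai1 (0.14, limma adjusted p = 0.319), Gnai2 (0.21, adjusted p = 0.125), Gnai3 (-0.09, adjusted p = 0.442; 0.02 with library-total scaling) and Gnaz (0.46, adjusted p = 0.08) was called. Gnai2 and Gnaz were called higher with library-total scaling (adjusted p = 0.0347 and 0.0361). Caps2, which encodes an EF-hand calcium-binding protein, was at 116 and 139.8 in the controls and at 35.1 and 24.6 in the knockouts (-2.08). Its relative Capsl differed by -2.10 (adjusted p = 0.037), with controls of 28.1 and 91.2 against knockouts of 12.0 and 10.2. Without control 2 Capsl was at -1.27, and its call was lost there (adjusted p = 0.171), without either knockout and without the filter on low values.

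3 membrane proteins of less clear role make up the rest of that group. Ceacam20, of the carcinoembryonic antigen family of adhesion proteins, was at 84.4 and 96.2 in the controls and at 10.02 and 7.17 in the knockouts (-3.26). Tmem45b was at 61.1 and 86.3 in the controls and at 8.02 and 6.15 in the knockouts (-3.20). Fam174b was at 239 and 289 in the controls and at 36.1 and 44.05 in the knockouts (-2.69). The knockouts of these 3 genes kept between 9.52% and 15.2% of the control mean. Fam174a (-0.01, limma adjusted p = 0.969), Fam174c (0.17, adjusted p = 0.737) and Tmem45a (-0.47, adjusted p = 0.326) were not called.

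Secreted proteins and proteases gave 3 members. C8b, a chain of the membrane attack complex of complement, was at 123 and 169 in the controls and at 21.05 and 23.6 in the knockouts (-2.64). Cpn1, the catalytic subunit of carboxypeptidase N, was at 151 and 183 in the controls and at 44.1 and 29.7 in the knockouts (-2.17). Prss47, a serine protease, was at 51.4 and 69.4 in the controls and at 13.03 and 9.22 in the knockouts (-2.34).

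The partner chains of C8b and Cpn1 were mostly near the floor. C8a was between 3.88 and 5.95 and Cpn2 between 0 and 1.002 in the 4 libraries. C8g was at 114 and 174 in the controls and at 85.2 and 54.3 in the knockouts, without overlap but not called (-1.04, limma adjusted p = 0.0518; called lower with library-total scaling, adjusted p = 0.0477).

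The other 6 genes have little known function beyond a domain or a testis pattern. Spata31d1a, of the Spata31 family of spermatid proteins, was at 131 and 171 in the controls and at 25.1 and 15.4 in the knockouts (-2.86). Lrrc37a, a leucine-rich repeat protein whose window holds the repeated stretch shown above, was at 288 and 363 in the controls and at 76.2 and 48.1 in the knockouts (-2.40). Fhad1, which carries a forkhead-associated domain, was at 632 and 877 in the controls and at 179 and 142 in the knockouts (-2.21). In all 3 the lowest control was more than 3 times the highest knockout, as it was in every member but Dynlrb2.

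Spats1, a serine-rich spermatogenesis protein, was at 328 and 425 in the controls and at 99.2 and 73.8 in the knockouts (-2.11). Trpd52l3, a testis relative of tumor protein D52, was at 528 and 661 in the controls and at 157 and 129 in the knockouts (-2.04). 4931428L18Rik was at 85.3 and 99.2 in the controls and at 26.1 and 13.3 in the knockouts (-2.24). Of the relatives, Spats2 was called lower (-0.63, limma adjusted p = 0.00276), while Spats2l (0.23, adjusted p = 0.472), Tpd52 (0.23, adjusted p = 0.117), Tpd52l1 (0.09, adjusted p = 0.684) and Tpd52l2 (0.16, adjusted p = 0.26) were not called.

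Compared by length, the control level of the 27 genes spread from 10.2 reads per kilobase in D7Ertd443e to 2925 in Piwil1, with a median of 57.3 against 139 among the 379 and 158 among the 12553. Below Piwil1 and Sprtn the order ran 1700006A11Rik (956), Dynlrb2 (539), Prok2 (527) and Morc2b (480), and the last 3 overlapped in their control libraries. Lengths are those of the merged exons in GENCODE M21. The genes lie on 15 chromosomes. None is on the X chromosome, and neither is any of the 379, while 497 of the 12553 are.

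The fall was smaller against control 1 than against control 2 in 26 of the 27 genes, which only restates the difference between the controls. Against control 1 alone, 20 of the 27 genes fell by 2 or more, and the smallest fall was -1.88, in Sprtn. Against control 2 alone all 27 did, which the limits fix wherever control 2 is the higher control. The limma call was lost without control 2 in Usp44, Cpn1, Dynlrb2, Caps2, Samd7, 4931428L18Rik and Prss47 and without control 1 in Dynlrb2 and 4931428L18Rik, with adjusted p from 0.0514 in 4931428L18Rik without control 1 to 0.143 in Dynlrb2 without control 2. Without knockout 1 all 27 kept a fall of 2 or more, and without knockout 3, 19 did. The 7 genes short of 2 against control 1 were Fhad1, Usp44, Spats1, Caps2, Gnao1, Sprtn and Trpd52l3, between -1.98 and -1.88. The fall moved by more than 1.5 times with 1 library left out in 2 genes, Dynlrb2 (above) and Morc2b, which was at -6.72 without knockout 3 and at -8.09 without knockout 1.

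**Figure D3:**
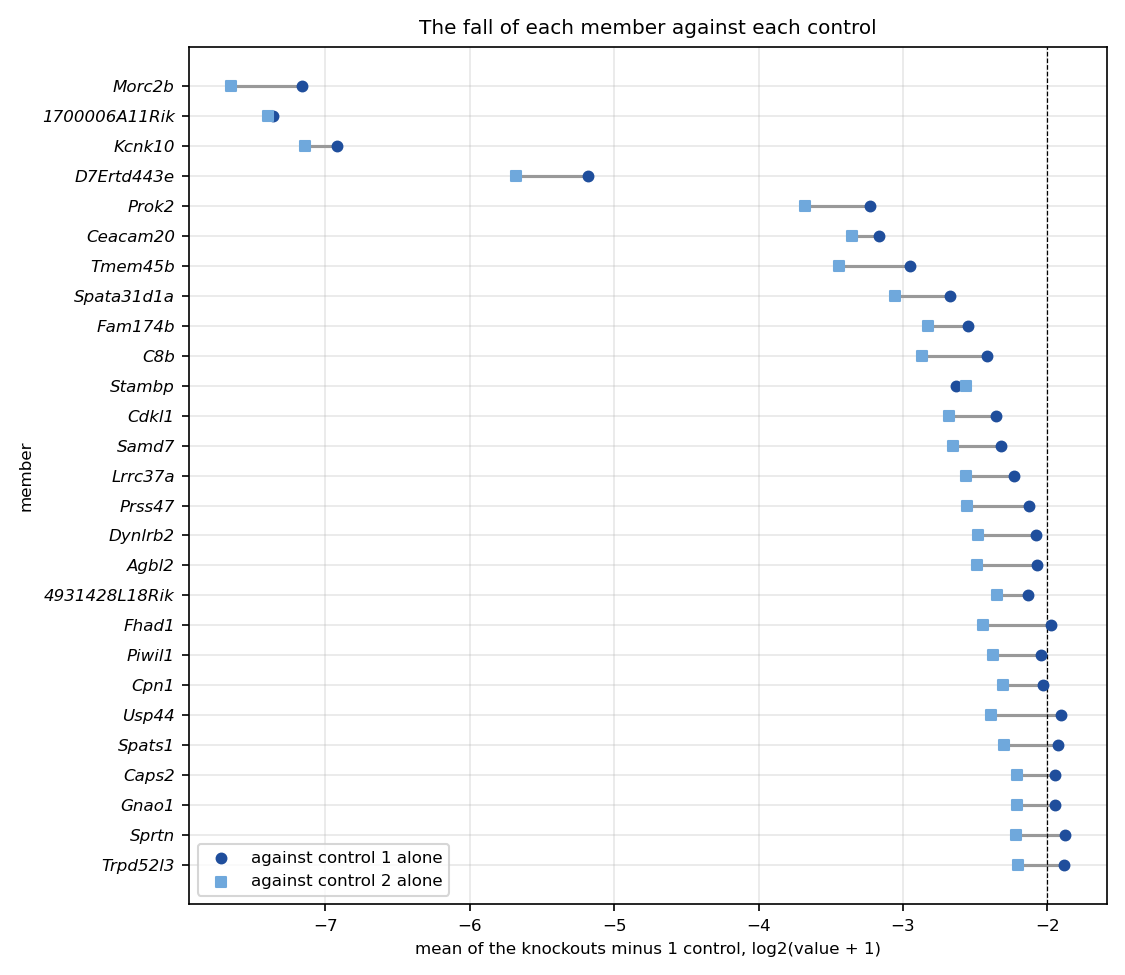
Mean of the 2 knockouts minus a single control, in log2(value + 1), for each of the 27 genes: dark circles against control 1 alone and light squares against control 2 alone, joined by a line. The dashed line marks -2; 20 circles and all 27 squares lie at or to the left of it, and the circle lies to the right of the square in every gene but Stambp.

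Genes just outside the limits show how sharp they are. Lrguk (-1.99), Stpg2 (-1.97) and Spdye4b (-1.96) missed the fall, while Trpd52l3, Sprtn and Gnao1 met it at -2.04 to -2.08. Cyp19a1, Alx1 and Dnah8 were at -2.80, -2.46 and -2.49 with controls 0.50 to 0.51 apart, just over the limit, and D7Ertd443e, Tmem45b and Morc2b lay just inside it at 0.49. Eya4, with a control mean of 49.9991, a fall of -3.46 and control 1 slightly above control 2 (50.4 and 49.6), missed only the level.

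With the cell type marker lists counted beside the chosen pathway lists, 3 of the 27 genes (11.1%) were in any list: Piwil1, Morc2b and Usp44. Among the 379 other strong falls, 73 (19.3%) were. The share over all genes was not computed, so neither share is called low or high. The axoneme and flagellum list holds 47 of the 379 and none of the 27. Of its 90 tested genes 74 were called lower and none higher by limma, with a median difference of -2.03 and a median difference between controls of 0.81, against 0.01 and 0.02 over all genes tested. Its most abundant genes were Rsph1, a radial spoke protein, from 10089 and 14594 to 5204 and 4154 (-1.38), and Dnah8, a dynein heavy chain, from 9068 and 12944 to 2069 and 1803 (-2.49).

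In the list of Piwil1, the piRNA pathway and germ granules, 19 of 31 tested genes were called lower and none higher, with a median of -0.65. Besides Piwil1, its most abundant genes were Piwil2 and Ddx4, a germ granule helicase, which went from 10493 and 11642 to 6640 and 6274 (-0.78). In the list of Morc2b, pachytene transcription regulators, 14 of 28 were called lower and none higher (median -0.57). Ewsr1, an RNA-binding protein, was not called (-0.13, limma adjusted p = 0.217), and Phf7, a histone ubiquitin ligase, differed by -2.09 with controls of 8540 and 14470.0. In the list of Usp44, ubiquitin and proteasome genes of spermatocytes, 13 of 26 were called lower and none higher (median -0.25). Ubb was at -0.35 and Cul3 at -0.28, both calls lost without control 2, without knockout 3 and without the filter on low values. The call of Ubb was also lost without control 1. That of Cul3 was also lost without knockout 1, with library-total or TMM scaling and with edgeR. The median difference between controls was 0.13, 0.28 and 0.19 in these 3 lists.

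Genes within 20000 bases of a member were compared in GENCODE M21, on GRCm38, whose gene order alone is used. 14 members had a protein-coding neighbour with a control mean of at least 50, 18 neighbours in all. Of these, 1 fell by 2 or more and the median difference was -0.18. That one, Dnaaf6, an assembly factor of axonemal dynein, starts 154 bases from 4931428L18Rik on the opposite strand. It was at 93.1 and 174 in the controls and at 16.0 and 17.4 in the knockouts (-2.85), against -2.24 for 4931428L18Rik.

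The other close pair differed more in size. Exoc8, an exocyst subunit, starts 181 bases from Sprtn on the opposite strand and was at 915 and 977 in the controls and at 696 and 739 in the knockouts (-0.40, limma adjusted p = 0.0296, lost with any library left out). The 2 other neighbours of Sprtn went opposite ways, Gnpat at -0.66 (adjusted p = 0.00394, lost without control 2 at 0.0566 and without the filter on low values at 0.0656) and Egln1 at 0.55 (adjusted p = 0.00394). These neighbours are named because of where they lie, after their values were seen.

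Neighbours of other gene types often fell with the member. Of 6 with a control mean of at least 50, 5 had a difference of -2 or lower, beside 14.3% of the 888 genes of other types at that level. Several of these overlap their member, so they are not independent of it. 5330409N07Rik lies within Kcnk10 on the same strand and was at 169 and 195 in the controls with no read in the knockouts. Whether it is a transcript apart from Kcnk10 was not tested. 4921527H02Rik, next to 1700006A11Rik on the same strand, was at 430.5 and 384 in the controls and at 3.01 and 1.02 in the knockouts (-7.16). Both followed the member closely.

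Gm10619, near Fam174b, fell from 179 and 226 to 1.002 and 0 (-7.16), far more than Fam174b itself (-2.69). Gm21284 overlaps Stambp on the opposite strand and fell from 419 and 571 to 37.1 and 30.7 (-3.82). 4930488L21Rik overlaps Gnao1 on the opposite strand and fell from 367 and 766 to 25.1 and 20.5 (-4.49). No source used here gives the strand setting of the counting, so reads of such overlapping pairs cannot be told apart. 14 of the 27 genes have an overlapping gene on the opposite strand in the table, and in 3 it reaches a control mean of 50: Stambp, Gnao1 and Spats1, whose partner B230354K17Rik was not called (0.15, limma adjusted p = 0.42).

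**Figure D4:**
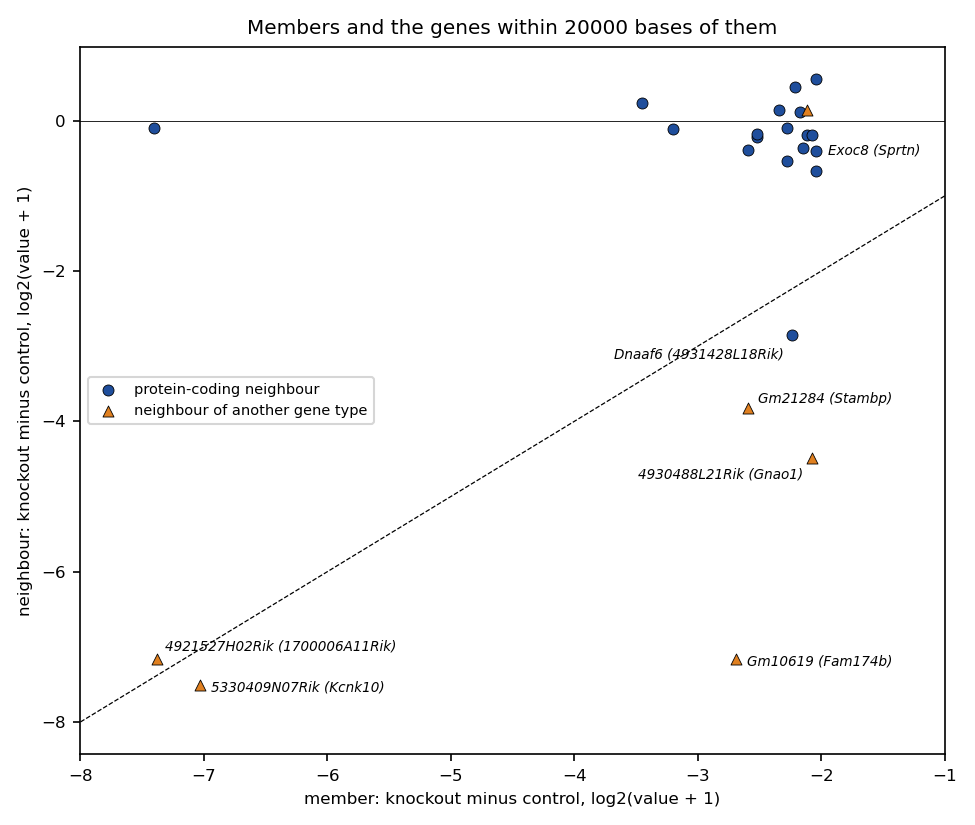
Log2(value + 1) difference of each gene within 20000 bases of a member, with a control mean of at least 50 (vertical), against that of the member (horizontal); circles are protein-coding and triangles are other gene types. The dashed line marks equal differences; 17 of 18 circles lie between -0.66 and 0.55, Dnaaf6 lies at -2.85, and 5 of 6 triangles lie below -2.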

How the data were processed

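Whole-testis RNA was sequenced, per the labels' protocols, from total RNA with the NEBNext Ultra kit. Tools listed in the submitters' processing notes are cutadapt, Bowtie2, featureCounts and DESeq2, with the build mm39; no source used here gives their versions, roles, settings or strand. In the deposited signal, each read count has been divided by a factor of its library: all values in the 4 libraries came out as whole reads within 1e-06. The authors' deposited table also holds a log2 fold change, its standard error and test statistic (scores) and p-values; the authors' adjusted p-values of the 27 genes were at most 0.00321, and their other values are not used.

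Differences were computed on log2(value + 1), with a pseudocount of 1, which understates changes of low genes. limma 3.58.1 (R 4.3.3) with a mean-variance trend was fitted to the 17480 genes whose mean value reached 10, 2 controls against 2 knockouts with 2 residual degrees of freedom, and p-values were Benjamini-Hochberg adjusted over all of them. The fit was also run on simulated reads, with a single spread setting for all genes and no systematic difference between the controls. The real controls did differ in many genes, so that run does not check the calls given here. Alternatives used edgeR 4.0.16 and DESeq2 1.42.0 on the recovered reads. The p-values rest on these samples only, and each gene's spread is drawn toward the trend over all genes. The trend carried 6.30 prior degrees of freedom against the 2 residual ones, so a p-value measures little of a gene's own spread. Neighbours and exon lengths came from GENCODE M21 (95.5% of genes matched), and promoters from RefSeq GRCm38.p6, a build other than mm39, so no mm39 position is printed. Promoters were found for 80.3% of expressed protein-coding genes and for 77.3% of the 379 other strong falls; the latter is too few for a comparison, so their shares are given for orientation only.

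The members and lists were chosen with earlier results of these data known. Genes were named by a rule: the 25 members with the lowest difference, those with control 2 not above control 1, the 10 with the highest control mean, those in a list or nearest a limit, their family relatives, up to 2 abundant genes of a described list, and Hsf5. Of the family relatives, 1 is not reported here. Neighbours and the genes of other types were named after their values were seen.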

Additional observations from a re-analysis of the deposited data

How the results depend on the processing

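The number of genes inside the limits was 27; it was 5 with controls at most 0.25 apart, 173 with controls at most 1 apart, 7 with a fall of -3 or lower and 195 with a fall of -1 or lower. With pseudocounts of 0.5 and 5, other level limits, TMM scaling or library-total scaling it was between 21 and 34, and with each library left out between 19 and 38. Library-total scaling gave 32 genes, of which 23 were among the 27.

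Over all genes, limma called 2366 lower and 573 higher. Without the filter on low values it called 815 and 37, and without the trend 40 and 0; at an unadjusted p under 0.05 the fit without the trend gave 2827 lower and 1456 higher, while edgeR called 522 higher and DESeq2 468. Library-total scaling gave 1513 higher, so that 57.0% of called genes were lower in place of 80.5%, and moved the median difference by 0.11. With each library left out, limma called 889 to 2096 lower and 31 to 337 higher, fewest without control 2; the single sample left in a group is then assumed to vary like the others. Without control 1 it called 2096 and 337, without knockout 1 1513 and 74, and without knockout 3 1112 and 74. The cause of these changes was not tested.

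Of 347 values of members under an alternative, 36 lost the limma call and none reversed: 24 members without the trend, 3 without the filter (Dynlrb2, 4931428L18Rik and Prss47), 7 without control 2 and 2 without control 1. Gnai3 reversed to 0.0203 with library-total scaling. No paired analysis was possible because the libraries analysed share a single replicate number, 1, between the groups. With 2 libraries a group, a fall near -2 and a control difference near 0.5 are set by few reads in the lowest genes.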

Other observations

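The same 3 limits applied to genes of other types gave 28 more: 18 lncRNAs, 4 genes of the type TEC, 4 processed pseudogenes, 1 pseudogene and 1 transcribed unprocessed pseudogene. 8 of the 28 had no knockout read, against 1 of the 27 protein-coding genes. Gm6567, a lncRNA, was at 717 and 1012 in the controls and at 0 in both knockouts. Gm14244, another lncRNA, was at 1249 and 1495 in the controls and at 1.002 and 2.05 in the knockouts, a log2 difference of -9.11. Gm31181, also a lncRNA, was at 177 and 179 in the controls, 0.02 apart on the log2 scale, and at 0 in the knockouts. Control 2 was above control 1 in 24 of the 28. In 4 it was below: 4921527H02Rik (-7.16), Gm34585 (-3.06; -2.01 without knockout 3, with its call lost there and without either control), 1700009C05Rik (-2.79) and ENSMUSG00000120436 (-2.31).

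Few genes fell with control 1 at or above control 2. Among protein-coding genes with a control mean of at least 50, controls within 0.5 and a difference of -1 or lower, 8 of 195 did so. Besides Stambp these were Glyctk, a glycerate kinase (158 and 149.7 in the controls, 52.1 and 42.0 in the knockouts, -1.70), Ak5, an adenylate kinase (-1.35), Ptprq, a receptor phosphatase (-1.18), Abo, a glycosyltransferase (-1.16), Ptchd3, a patched-domain protein (-1.13), Ryr3, a calcium release channel (-1.07), and Lgr6, a receptor (-1.03). limma called all of them lower but Ryr3 (adjusted p = 0.063). The calls of Ak5, Ptprq and Abo were lost with any library left out, that of Lgr6 in 3 of the 4 leave-outs, that of Ptchd3 without either control and that of Glyctk without control 2; DESeq2 did not call Ak5 (adjusted p = 0.0842). These genes were picked after their values were seen.

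Rises were small among protein-coding genes with a control mean of at least 50. Of the 12553, 8 had a difference of 1 or higher, the highest being 1.36. 4 of the 8 had controls within 0.5.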
